A study of Mus musculus with 9 samples.

Results

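The genes described here are 8 that mark cartilage and bone, read in the infarct border zone of mouse hearts: Sox9, Runx1, Runx2, Acan, Comp, Chad, Ibsp and Bglap. They were chosen by symbol, and each matched 1 of the 53465 gene rows of the count files through its Ensembl identifier. The list was drawn up with levels of these genes in all 3 groups in view, so its own levels and differences are given as a description, with no p-value; nothing is read from how many of the 8 passed in the fit over all genes, which is given beside the share of all genes that passed. A further 118 genes of cartilage, bone, tendon and their receptors and proteases, here called companion genes, are given with p-values of the same fit. Their lists were also drawn up with earlier results of these data known, so their counts and medians are no independent evidence of a direction.

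RNA was sequenced in 9 heart libraries, 3 in each of 3 groups, all from NOD-SCID mice, an immunodeficient strain without mature T and B lymphocytes. Sham hearts had the operation without ligation, ligated hearts had a coronary artery tied, and in the third group, called hearts with cells, ligated hearts also received implanted FOXO3-GE-MPCs. The labels name the border zone of the infarct for all 3 groups, the sham hearts included. Time after surgery, age, sex and the species of the implanted cells are not given in the labels used here, nor is it said whether the libraries of a group came from separate animals, so p-values measure only the spread between these libraries, which may be technical. For cell replicates 2 and 3, the source label names another FOXO member than the title and the treatment label do, and the latter were followed.

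In a developing skeleton, SOX9 commits cells to cartilage and switches on the genes of its matrix, while RUNX2 commits cells to bone. Chondrocytes then lay down aggrecan, cartilage oligomeric matrix protein (COMP) and chondroadherin, and osteoblasts lay down bone sialoprotein and osteocalcin around collagen that mineralises. Several of these genes are also used outside the skeleton: RUNX1 is a factor of blood cell formation, SOX9 is present in heart valves and in activated fibroblasts, and COMP is made in tendon and in scar tissue.

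Of the 8 genes, 6 had enough counts for the fit over all genes and Ibsp and Bglap did not. The 6 followed several different patterns. Comp stood at about the same high level in both ligated groups, Sox9 was highest in hearts with cells, and Runx2 was above sham in both ligated groups, which overlapped each other. Runx1 and Acan were highest after ligation alone, and Chad was lowest there. The bone matrix genes Ibsp and Bglap stayed at 0 or 1 count in every library.

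**Figure D1:**
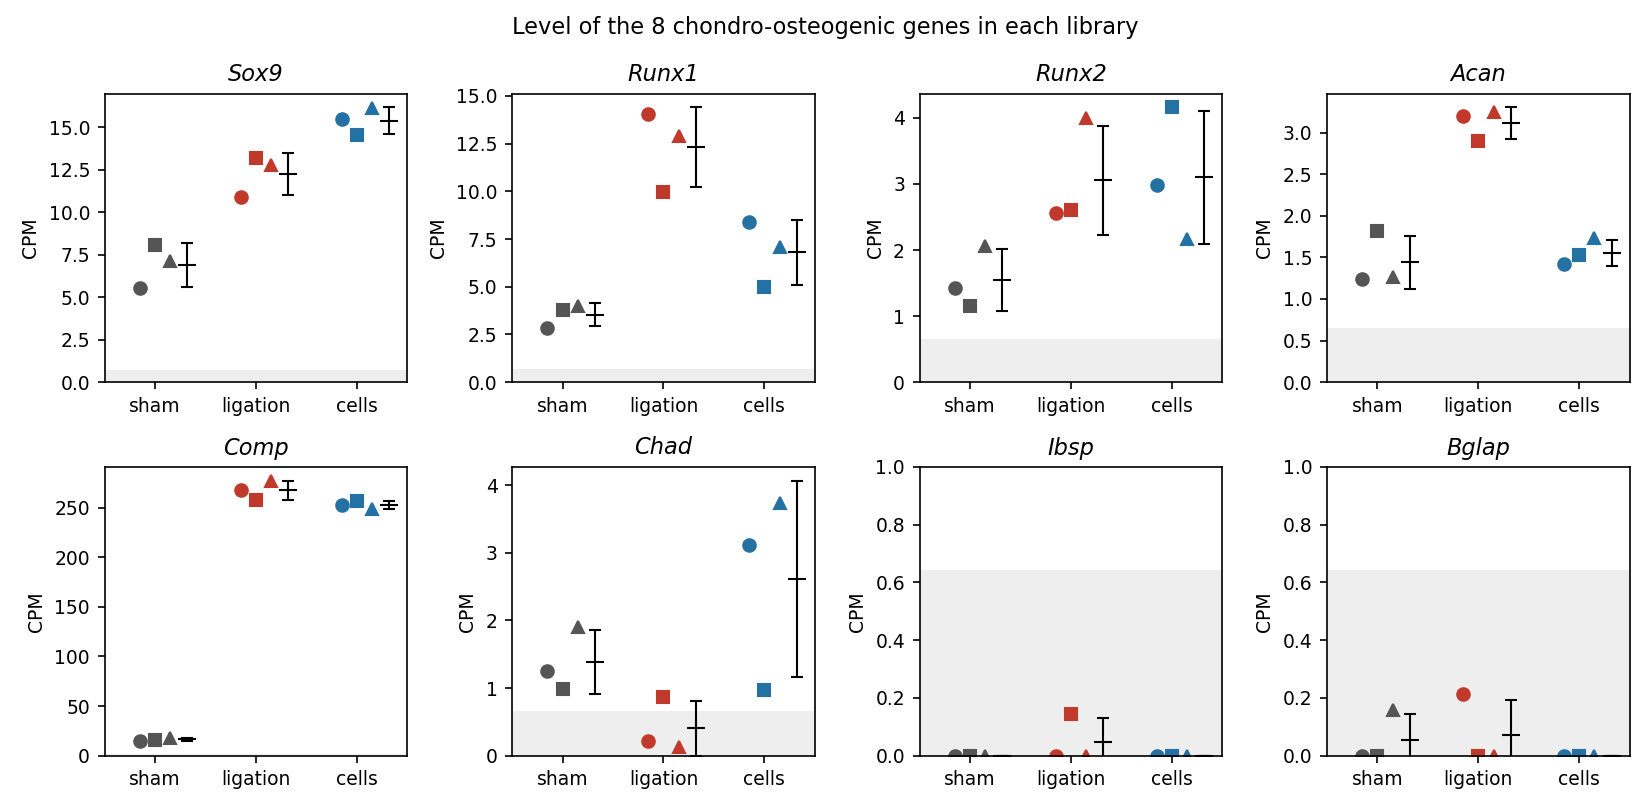
Level in CPM, counts scaled to a common library size (vertical axis), of each gene in the 3 libraries of each group (circle, square and triangle for replicates 1, 2 and 3), with the mean and SD as a black bar. The grey band reaches 0.639 CPM, which is 3 counts in the shallowest library; Ibsp and Bglap lie inside it in every library, while Comp in both ligated groups lies between 249 and 277 CPM.

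Libraries held 4549268 to 7515052 gene counts, so that 3 counts, taken here as the detectable level, equal 0.375 to 0.639 CPM. CPM are counts per 1000000 counts of the library, scaled with TMM factors, which assume that most genes do not differ. Sham replicates 1 and 2 share a name stem in their file headers, and so do ligation replicates 2 and 3. The chi-square per gene averaged 1.97 to 3.98 over pairs of libraries of 1 group, where counting noise alone gives about 1, and the pairs that share a stem were at 3.98 (sham) and 2.31 (ligation). These values do not show whether libraries that share a stem came from separate animals. Summing the libraries that share a stem, an alternative chosen after seeing the data, left the sign of every log2 difference of the 6 genes as it was, except that of Runx2 between hearts with cells and ligated hearts, which went from -0.01 to 0.02. Among the companion genes named below it ended 4 calls and added 1, each given beside its gene. Cardiomyocyte genes marked the tissue as heart: 7 of them summed to 50674 to 52616 CPM in sham, 37456 to 39254 in ligation and 36928 to 37755 with cells. The members of that sum differed: 5 passed as lower in each comparison with sham (as did 18.0% and 20.0% of all genes), Ryr2 passed as higher in both (log2 0.36 and 0.26), and Tnnt2 did not pass in ligation nor Actc1 with cells. In such tissue RNA, fewer cells of a type and less RNA per cell cannot be told apart.

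The promoters are shown because the list joins regulators with genes they are known to control in the skeleton. RefSeq (GRCm38.p6) held promoters for 6 of the 8 genes, 7 in all, Sox9 and Comp being the genes without an entry. The 250 bases before each start were searched on both strands for RUNX letters (TGTGGT or TGCGGT) and SOX letters (ACAAAG or ACAATG). RUNX letters were found in Bglap, Runx2 and Chad, and SOX letters in Ibsp. None of these letters was in the windows of Acan or in either promoter of Runx1. Of all 32851 promoters in that table, 18.6% held RUNX letters and 25.2% SOX letters, so a match is a description of the sequence and not a binding site. The 4 windows with a match follow 5′ to 3′ on the strand of the gene, the matched letters in capitals; in Bglap they begin 132 bases before the start, in Runx2 80, in Chad 45 and in Ibsp 186, and no match overlaps another.
Bglap (chr3:88384467-88384716, minus strand): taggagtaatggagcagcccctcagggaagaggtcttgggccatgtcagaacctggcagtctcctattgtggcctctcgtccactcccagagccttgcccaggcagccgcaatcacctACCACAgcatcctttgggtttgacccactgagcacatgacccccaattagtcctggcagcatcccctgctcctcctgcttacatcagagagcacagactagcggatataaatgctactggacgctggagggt
Runx2 (chr17:44814628-44814877, minus strand): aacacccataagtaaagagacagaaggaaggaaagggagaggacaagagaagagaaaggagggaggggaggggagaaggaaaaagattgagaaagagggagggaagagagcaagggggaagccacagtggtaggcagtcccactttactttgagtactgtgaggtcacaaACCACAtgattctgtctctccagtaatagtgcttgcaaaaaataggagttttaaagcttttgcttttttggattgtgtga
Chad (chr11:94564797-94565046, plus strand): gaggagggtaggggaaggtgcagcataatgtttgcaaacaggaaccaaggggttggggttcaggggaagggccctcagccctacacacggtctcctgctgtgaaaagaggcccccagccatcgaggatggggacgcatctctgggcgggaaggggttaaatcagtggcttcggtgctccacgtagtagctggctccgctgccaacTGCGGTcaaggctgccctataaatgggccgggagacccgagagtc
Ibsp (chr5:104299037-104299286, plus strand): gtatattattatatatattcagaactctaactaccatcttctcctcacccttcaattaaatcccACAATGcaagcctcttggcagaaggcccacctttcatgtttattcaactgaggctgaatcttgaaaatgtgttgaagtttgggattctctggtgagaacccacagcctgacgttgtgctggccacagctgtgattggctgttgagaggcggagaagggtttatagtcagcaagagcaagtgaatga
In Bglap and Runx2 the capitals read ACCACA, which is TGTGGT on the other strand. In Chad they read TGCGGT, and in Ibsp ACAATG.

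Sox9 (ENSMUSG00000000567, chr11:112782224-112787760), the transcription factor that starts cartilage formation, was at 5.52, 8.07 and 7.14 CPM in sham replicates 1 to 3. It was at 10.9, 13.2 and 12.8 CPM in ligation and at 15.5, 14.6 and 16.1 CPM with cells. The 3 groups did not overlap, sham being lowest and hearts with cells highest. Between ligation and sham the log2 difference was 0.83 (SE 0.170), and between hearts with cells and ligation it was 0.31 (SE 0.147). Against sham, hearts with cells were higher by 1.15 on the log2 scale (SE 0.163), a 2.21-fold difference. The 3 comparisons share libraries, since each group enters 2 of them.

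Runx1 (ENSMUSG00000022952, chr16:92601466-92826149), a runt-domain factor best known for blood stem cells, was at 2.85, 3.79 and 3.97 CPM in sham. Ligated hearts had 14.1, 9.98 and 12.9 CPM, and hearts with cells 8.37, 4.99 and 7.06 CPM. The groups again did not overlap, but here the hearts with cells lay between the others. Ligation was 3.43-fold above sham (log2 1.78, SE 0.237), and hearts with cells were 1.79-fold below ligation (log2 difference -0.84, SE 0.207). They were still 1.91-fold above sham (log2 0.93, SE 0.253).

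Runx2 (ENSMUSG00000039153, chr17:44495987-44814797), the runt-domain factor that osteoblasts need, was low throughout, with 7 to 32 counts per library. It was at 1.42, 1.15 and 2.06 CPM in sham, 2.56, 2.60 and 4.0 in ligation and 2.98, 4.16 and 2.16 with cells. Both ligated groups lay above sham in every library, hearts with cells by a narrow margin, and they overlapped each other. The log2 difference was 1.0 between ligation and sham (SE 0.382), 0.99 between hearts with cells and sham (SE 0.378) and -0.01 between hearts with cells and ligation (SE 0.327). The last changed sign when single libraries were left out, from -0.28 to 0.27. Annotated exons of Runx1 and Runx2 overlap antisense genes over 106 and 519 bases, but those antisense genes had at most 3 counts in any library.

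Acan (ENSMUSG00000030607, chr7:79053483-79115099) encodes aggrecan, the large proteoglycan that holds water in cartilage. It was at 1.25, 1.81 and 1.27 CPM in sham, 3.20, 2.89 and 3.25 in ligation and 1.42, 1.53 and 1.73 with cells, from 7 to 26 counts per library. Ligated hearts lay above all other libraries, and hearts with cells overlapped sham. Ligation was 2.14-fold above sham (log2 1.10, SE 0.348) and hearts with cells were 1.99-fold below ligation (log2 difference -0.99, SE 0.332). Against sham, hearts with cells differed by 0.11 on the log2 scale with an SE of 0.383. From the summed counts, 33 with cells and 61 in ligation, the ratio was 0.500 with an exact 95% interval of 0.317 to 0.776, which covers counting error only.

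Comp (ENSMUSG00000031849, chr8:70373558-70382066) encodes a matrix protein of the thrombospondin family that binds collagen fibrils. It was at 14.8, 16.1 and 18.3 CPM in sham, at 267, 258 and 277 CPM in ligation and at 252, 257 and 249 CPM with cells. Sham lay far below both ligated groups, and the ligated groups were separated by less than 1 CPM, between 257.2 and 257.9. Ligation was 16.3-fold above sham (log2 4.02, SE 0.0728) and hearts with cells 15.4-fold (log2 3.94, SE 0.0727). The log2 difference between the ligated groups was -0.08 (SE 0.0551), the SD being 9.63 CPM in ligation and 4.09 with cells. No other gene of the 8 differed as much from sham.

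Chad (ENSMUSG00000039084, chr11:94565047-94569127) encodes chondroadherin, a leucine-rich cartilage protein that binds integrin on chondrocytes. It had 7, 6 and 12 counts in sham, 1, 6 and 1 in ligation and 22, 7 and 26 with cells. In CPM these are 1.25, 0.988 and 1.90 in sham, 0.213, 0.868 and 0.13 in ligation and 3.12, 0.971 and 3.75 with cells. Ligation replicates 1 and 3 were below the detectable level, and cell replicate 2 was as low as the lowest sham library. Hearts with cells therefore overlapped sham, and they cleared ligation narrowly, at 0.971 against 0.868 CPM.

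For Chad the summed counts were 55 with cells and 8 in ligation, a ratio of 6.36 with an exact 95% counting interval of 3.01 to 15.5. Between ligation and sham, with 8 and 25 counts, it was 0.294 (0.114 to 0.672). The fitted log2 differences were 2.62 (SE 0.622) between hearts with cells and ligation, -1.72 (SE 0.708) between ligation and sham and 0.90 (SE 0.500) between hearts with cells and sham. The third became 0.55 without cell replicate 3. Without ligation replicate 2 the first became 3.88 and the second became -2.98. Of the other fits without 1 library, the smallest differences came without ligation replicate 3, at 2.09 and -1.21. Of genes of fast skeletal muscle, a tissue of the chest wall, 8 summed to 4.81 to 8.07 CPM in sham, 11.9 to 16.4 in ligation and 2.13 to 4.32 with cells, and none was at 0 in all libraries. Of the 4 that could be tested, 2 (Tnnt3 and Pvalb) passed as higher between ligation and sham, where 20.1% of all genes did, and 3 (those and Tnni2) as lower between hearts with cells and ligation, where 5.69% did. Mylpf did not pass in any of the 3 comparisons. The summed level of the 8 muscle genes was highest in ligation, where Chad was lowest. It was lowest with cells, where the mean of Chad was highest. The part of these genes in the levels of Chad was not tested.

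Ibsp (ENSMUSG00000029306, chr5:104299171-104311469), which encodes bone sialoprotein, had 1 count in all 9 libraries together, in ligation replicate 2. The 0 counts over the 3 sham libraries allow a level of up to 0.167 CPM, and over the 3 libraries with cells up to 0.142 CPM. Bglap (ENSMUSG00000074483, chr3:88383501-88384464), which encodes osteocalcin, had 1 count in sham replicate 3, 1 in ligation replicate 1 and 0 elsewhere. No fold is given for either gene, since every group is at or below the detectable level. Bglap has near-identical neighbours: 62.9% of its 31-base words also occur in another gene, the gene sharing most being Bglap2, so its count is uncertain, and how such reads were counted is not given in the sources used here. Bglap2 had 0 counts in all 9 libraries and Bglap3 had 1 count in ligation replicate 3 and 1 in cell replicate 2, so the 3 rows together hold 4 counts.

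**Figure D2:**
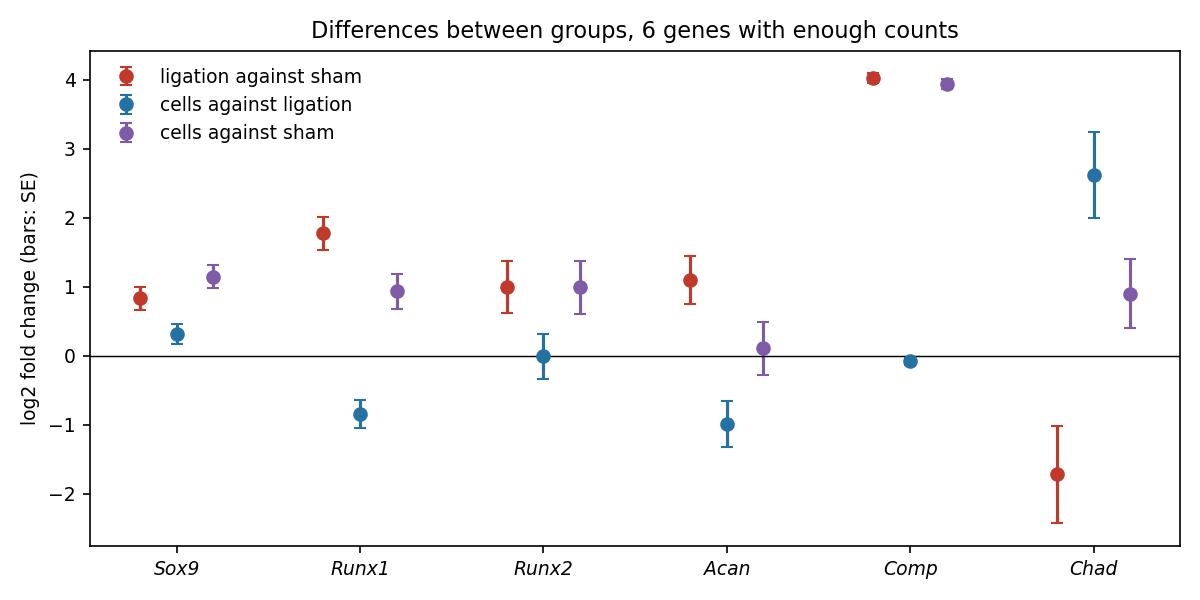
Log2 fold change (vertical axis) of the 6 genes with enough counts in the 3 comparisons, each point with its SE from the edgeR fit. Comp lies near 4 against sham in both ligated groups, Runx1 and Acan lie above 0 for ligation against sham and below 0 for cells against ligation, and Chad shows the opposite signs with wide errors.

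Levels can be set against each other between genes only per length, here as CPM per kilobase of annotated exons. In sham the order was Comp at 5.52 ± 0.591 (SD, n = 3), Sox9 at 1.67 ± 0.313, Chad at 0.821 ± 0.281, Runx1 at 0.294 ± 0.0501, Acan at 0.193 ± 0.0429 and Runx2 at 0.175 ± 0.0529. After ligation Comp was at 90.1 ± 3.25, Sox9 at 2.97 ± 0.296, Runx1 at 1.02 ± 0.174, Acan at 0.417 ± 0.0257, Runx2 at 0.346 ± 0.0928 and Chad at 0.239 ± 0.242. With cells Comp was at 85.2 ± 1.38, Sox9 at 3.72 ± 0.190, Chad at 1.55 ± 0.866, Runx1 at 0.566 ± 0.141, Runx2 at 0.351 ± 0.114 and Acan at 0.209 ± 0.0211. Comp and Sox9 led in all 3 groups. Acan and Runx2 in sham, Acan, Runx2 and Chad in their order after ligation, and Chad, Runx1 and Runx2 in theirs with cells were neighbours whose mean ± SD overlapped.

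In the fit over all 13825 genes tested (edgeR's quasi-likelihood test, Benjamini-Hochberg adjusted p under 0.05), 5 of the 6 tested members passed between ligation and sham, all of them higher, where 38.2% of all genes passed. In hearts with cells against ligation 2 passed, Chad higher and Runx1 lower, where 9.87% of all genes passed. Against sham, hearts with cells had 4 that passed, all higher, where 40.9% of all genes passed. CPM ranges of the 6 did not overlap between ligation and sham, 5 higher and 1 lower, as in 47.6% of all genes (25.0% higher and 22.6% lower). For hearts with cells they did not overlap with ligation in 5 genes, where 27.2% of all genes did not, nor with sham in 4, where 49.8% did not. Since the members were drawn up with these levels known, nothing is read from those counts. They also rest on single libraries. The first count was 3 without sham replicate 1 and 3 without ligation replicate 3, where 33.2% and 31.9% of all genes passed. Without ligation replicate 3 the second was 0 by edgeR, where 6.84% of all genes passed. There 3 members had an unadjusted p under 0.05, and DESeq2 on all libraries called 2, from which nothing is read either. The second count was 1 without cell replicate 2 and 1 without cell replicate 3, where 7.67% and 7.27% of all genes passed.

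The patterns of the 6 genes over the 9 libraries were compared with those of 13801 other genes by Pearson's r of log2 CPM, as a description. The libraries fall into 3 groups, so a high r mostly says that group means are in the same order. Comp was most like Cfd, Tnc and Mfap4 (r = 0.999 for each). Cfd, which encodes complement factor D, was at 7.77 ± 0.751 CPM in sham, 147 ± 2.37 in ligation and 143 ± 7.89 with cells. Sox9 was most like Nr4a3 (0.987), Slc20a2 (0.983) and Rap1gap2 (0.982). Acan was most like Trem2 (0.982), Lgals3bp (0.980) and Sirpa (0.979), and Runx1 was most like Entpd1 (0.979), Serp1 (0.979) and Tifa (0.978). For Runx2 the highest were Ccdc34 (0.941), Gm47283 (0.936) and Ufm1 (0.933), and for Chad they were Clock (0.944), Gm20604 (0.902) and Gnl3l (0.897). Counting error is large for Runx2, Acan and Chad, which limits any likeness read from them.

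Among the members themselves, r was 0.918 between Sox9 and Comp, 0.843 between Runx1 and Acan and -0.762 between Acan and Chad. It was 0.838 between Runx1 and Comp, nearly that of Runx1 and Acan, and 0.813 between Runx2 and Comp. Trem2, a receptor of macrophages, was at 8.34 ± 1.67 CPM in sham, 23.8 ± 2.69 in ligation and 10.2 ± 0.423 with cells. The 8 genes fixed as macrophage and monocyte markers moved likewise: they summed to 441 to 476 CPM in sham, 866 to 906 in ligation and 357 to 372 with cells. Of these 8 markers, 7 passed as higher between ligation and sham, where 20.1% of all genes did, and 8 as lower between hearts with cells and ligation, where 5.69% did. In hearts with cells against sham 4 passed as lower, where 20.0% of all genes did, and none of the 8 was at 0. Runx1 and Acan were highest in the group where that sum was highest. With cells the sum was below sham in every library, while Runx1 was above sham in every library. The part of these cells in the levels of Runx1 and Acan was not tested.

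**Figure D3:**
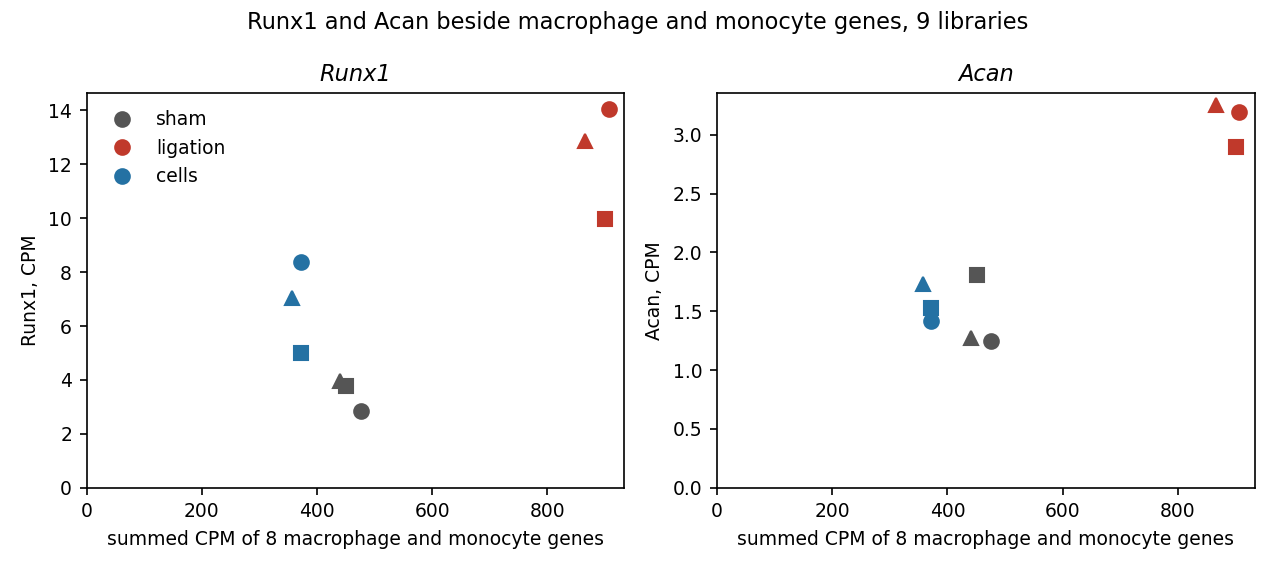
CPM of Runx1 (left) and Acan (right) on the vertical axis against the summed CPM of 8 macrophage and monocyte genes in the same library (horizontal axis), 1 point per library coloured by group, with a symbol for the replicate number. The 3 ligation libraries stand apart at upper right, at 866 to 906 CPM of summed markers; hearts with cells have lower sums than sham yet higher Runx1.

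Of the genes that define skeletal cells, those of chondrocytes were low, while Alpl of the osteoblast list was well above the detectable level. Acp5 of the osteoclast list was well above that level in both ligated groups, but had only 7, 6 and 5 counts in sham. The 7 chondrocyte markers, Col2a1 among them, summed to 2.67 to 3.62 CPM in sham, 1.07 to 2.50 in ligation and 1.66 to 2.41 with cells, and Matn1 and Snorc had 0 counts in all libraries. Most of the sum in sham came from Cnmd, the only 1 of the 7 with enough counts to be tested. Cnmd was at 2.76 ± 0.664 CPM in sham, 0.919 ± 0.309 in ligation and 0.994 ± 0.301 with cells. Col2a1, the collagen that defines cartilage, had 0 counts in each sham library, 1, 3 and 7 in ligation and 0, 3 and 1 with cells. Hapln1, which links aggrecan to hyaluronan, had at most 7 counts, and Matn3 had 3 counts in cell replicate 1 and 0 elsewhere. The osteoblast factor Sp7 had 1 count in ligation replicate 2, 1 in cell replicate 1 and 0 elsewhere. The 6 osteoblast markers summed to 53.3 to 57.5 CPM in sham, 64.8 to 73.1 in ligation and 68.0 to 71.8 with cells, nearly all of it from Alpl, with Bglap2 at 0. Osteoclast markers summed to 3.65 to 7.12 CPM in sham, 13.5 to 17.1 in ligation and 8.05 to 9.22 with cells, most of the sum in both ligated groups coming from Acp5, a gene that macrophages also express, while Calcr was at 0. Ctsk, the collagen-cutting protease of osteoclasts, had a lower mean than in sham in both ligated groups, where that sum was higher. It had 4.22 ± 1.53 CPM in sham hearts, 1.97 ± 0.518 after ligation and 1.27 ± 0.228 with cells, and passed as lower in both comparisons with sham (edgeR adjusted p 0.0159 and 0.000968). Sham and ligation overlapped, with sham replicate 3 at 2.54 CPM and ligation replicate 1 at 2.56. Of the 3 osteoclast genes tested, Acp5 and Atp6v0d2 passed as higher in both comparisons with sham. Of all genes 20.1% and 21.0% passed there as higher, and 18.0% and 20.0% as lower.

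Beside Comp and Sox9, which were high in both ligated groups, 2 further marker lists were high there. The 7 fibroblast genes summed to 1767 to 1824 CPM in sham, 2598 to 2682 in ligation and 2546 to 2623 with cells, and 4 of them (Dcn, Lum, Col1a1 and Postn) passed as higher in each comparison with sham, where 20.1% and 21.0% of all genes did. Pdgfra, a receptor that marks resting fibroblasts, passed as lower after ligation, at 61.4 ± 4.24 CPM in sham and 53.4 ± 2.61 in ligation (edgeR adjusted p 0.0490), while Tcf21 and Dpt did not pass. The 5 mesothelial genes summed to 32.1 to 42.9 CPM in sham, 212 to 249 in ligation and 170 to 175 with cells, and all 5 passed as higher in both comparisons with sham. None of these genes was at 0. Their part in the levels of Comp and Sox9 was not tested.

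The companion genes, like the members, were listed with earlier results known, so the counts and medians below describe these lists and are not a test of them against other genes. They were examined to see which other parts of the cartilage and bone programmes differed in the same libraries. Of 118 genes in 8 lists, 76 had enough counts to be tested, and 8 had 0 counts in all libraries. Between ligation and sham 46 passed (edgeR's quasi-likelihood test, adjusted p under 0.05), 41 higher and 5 lower, where 20.1% of all genes passed as higher and 18.0% as lower. Their median log2 difference was 0.45, against 0.01 over all genes. Between hearts with cells and ligation 12 passed, 4 higher and 8 lower, where 4.19% of all genes passed as higher and 5.69% as lower, and the median was -0.02, against 0.00. In hearts with cells against sham 47 passed, 39 higher and 8 lower, where 21.0% of all genes passed as higher and 20.0% as lower, with a median of 0.42 against -0.01. Over all genes the share of passing genes that were higher was 52.7%, 42.4% and 51.2% in the 3 comparisons, and 78.7%, 32.0% and 73.1% when libraries were scaled by their totals alone. That scaling moved the median of all genes to 0.20, -0.03 and 0.15. By list, the median log2 difference between ligation and sham was largest for tendon and ligament (1.21), osteoblast and bone matrix (1.11), receptors (0.82) and cartilage matrix (0.61). It was 0.31 for chondrogenic regulators, 0.23 for proteases, 0.19 for mineral balance and 0.16 for RUNX partners. From ligation to hearts with cells the list medians lay between -0.14 (chondrogenic regulators) and 0.05 (cartilage matrix and RUNX partners). Every companion gene named below with a passing test had CPM ranges that did not overlap between the 2 groups compared, each of 3 libraries.

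**Figure D4:**
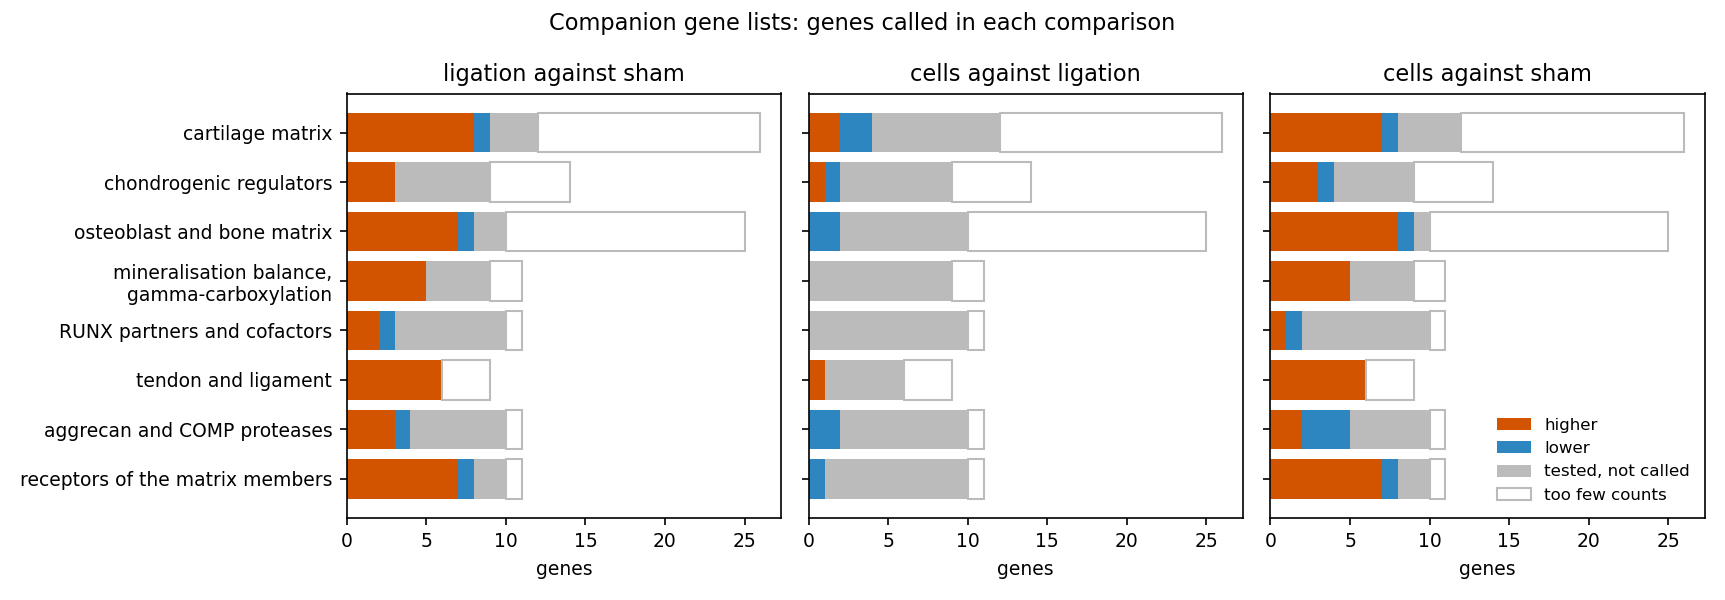
Number of genes (horizontal axis) in each of the 8 companion lists that passed as higher or lower, were tested and did not pass, or had too few counts, in the 3 comparisons. Tendon and ligament genes passed as higher in 6 of 6 tested against sham in both ligated groups, and few genes of any list passed between cells and ligation.

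Of 26 cartilage matrix genes 12 could be tested, and 8 rose and 1 fell between ligation and sham. The largest difference was that of Col11a1, a fibrillar cartilage collagen, which the rule for naming genes left out because its mean was 0.993 CPM and which was chosen after its values were seen. It had 0, 1 and 0 counts in sham, 10, 5 and 11 in ligation and 15, 6 and 11 with cells. The ratio of summed counts to sham was 23.9 in ligation, with an exact 95% counting interval of 3.92 to 978, and 27.2 with cells (4.54 to 1105), with edgeR adjusted p-values of 0.00135 and 0.000643. Cilp, a cartilage intermediate layer protein, rose from 26.0 ± 1.21 to 73.6 ± 2.07 CPM (SD, n = 3; log2 1.51, SE 0.0791, edgeR adjusted p 5.23e-12). Prg4, the lubricin of joint surfaces, rose from 43.4 ± 2.60 to 109 ± 6.82 CPM (log2 1.33, edgeR adjusted p 8.53e-12). Cnmd, chondromodulin, an inhibitor of vessel growth found in cartilage and heart valves, fell from 2.76 ± 0.664 to 0.919 ± 0.309 CPM (log2 -1.51, edgeR adjusted p 0.00660). From ligation to hearts with cells 2 rose and 2 fell. Fmod, fibromodulin, a collagen-binding proteoglycan, rose from 24.2 ± 3.07 to 39.1 ± 3.88 CPM (log2 0.68, SE 0.109, edgeR adjusted p 0.000224), having been at 14.8 ± 1.04 CPM in sham. Prg4 fell to 79.1 ± 2.70 CPM (log2 -0.46, edgeR adjusted p 7.02e-05). Cilp was at 62.7 ± 4.12 CPM, and its call (log2 -0.23, edgeR adjusted p 0.0356) was lost without ligation replicate 2 or 3 or cell replicate 2 or 3, with a replicate block, with DESeq2, with no filter on low counts and with libraries that share a header stem summed, its adjusted p reaching 0.156 over the alternatives. Against sham, hearts with cells had 7 genes of the list higher and 1 lower, among them Fmod (log2 1.40), Cilp (1.27) and Cnmd (-1.47), with edgeR adjusted p-values of 6.76e-09, 7.02e-11 and 0.00650.

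Of 14 chondrogenic regulators 9 could be tested, and 3 rose between ligation and sham with none lower (6 and 0 with library totals alone). Sox6, which works with SOX9 in cartilage, had 10.4 ± 2.51 CPM in sham hearts and 15.7 ± 2.68 after ligation (log2 0.59, edgeR adjusted p 0.0139), a call lost without sham replicate 1 or ligation replicate 2 (up to 0.0880). Pth1r, the receptor of parathyroid hormone and its related peptide, rose by 0.58 (edgeR adjusted p 0.00450). Trps1, a repressor in growth plates, was higher by 0.55 (edgeR adjusted p 0.00552, and 0.0597 without ligation replicate 3). Shox2, a homeobox factor of limb cartilage and of the sinoatrial node, was at 1.33 ± 0.628 CPM in sham, 1.55 ± 0.486 in ligation and 4.25 ± 0.626 with cells. Between hearts with cells and ligation it was higher by 1.49 (SE 0.362, edgeR adjusted p 0.00996), a call lost without ligation replicate 3 (0.0892), and against sham it rose by 1.66 (edgeR adjusted p 0.00129). Fgfr3, a receptor that restrains cartilage growth, was lower with cells than in ligation by 0.38 on the log2 scale (edgeR adjusted p 0.0381). That call was lost without ligation replicate 2, cell replicate 1 or cell replicate 2 and with a replicate block, DESeq2, a 2-group fit or libraries that share a header stem summed, the adjusted p reaching 0.245. Against sham, Fgfr3 fell by 0.59 in hearts with cells (edgeR adjusted p 0.000256).

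Sox6 was higher in hearts with cells than in sham by 0.55 (edgeR adjusted p 0.0189), and that call was lost without sham replicate 1, sham replicate 3 or cell replicate 3, the adjusted p reaching 0.105. In that comparison 3 genes of the list passed as higher and 1 as lower.

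Of 25 osteoblast and bone matrix genes 10 could be tested, and 7 rose and 1 fell between ligation and sham. Spp1, osteopontin, a phosphoprotein of bone that macrophages also make, had 2.49, 2.80 and 1.90 CPM in sham, 26.8, 29.4 and 30.9 in ligation and 14.9, 13.9 and 14.3 with cells. It rose by 3.60 after ligation (SE 0.170, edgeR adjusted p 8.82e-13) and fell by 1.02 between ligation and hearts with cells (SE 0.120, edgeR adjusted p 5.60e-06). Tnfrsf11b, osteoprotegerin, which blocks osteoclast formation, rose from 0.709 ± 0.650 to 6.93 ± 0.542 CPM (log2 3.22, edgeR adjusted p 1.76e-06) and was at 5.72 ± 1.15 with cells. Its sham level rests on 3, 1 and 9 counts, and without sham replicate 3 the log2 difference from sham became 4.25 in ligation and 3.99 with cells. Smpd3, a sphingomyelinase needed for bone mineral, rose from 4.27 ± 0.442 to 16.3 ± 2.27 CPM (log2 1.93, edgeR adjusted p 2.83e-08). Sparc, osteonectin, rose by 0.65 and the alkaline phosphatase gene Alpl by 0.32 after ligation, with edgeR adjusted p-values of 1.31e-11 and 0.000916. Neither passed between hearts with cells and ligation (edgeR adjusted p 0.149 and 0.937), but Sparc did with library totals alone (0.0446).

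Sost, sclerostin, a Wnt inhibitor of bone and vessel wall, went the other way. Its level was 9.61, 7.41 and 6.51 CPM in sham, 3.62, 3.62 and 2.63 in ligation and 0.993, 1.66 and 1.30 with cells, so the 3 groups did not overlap. The log2 difference was -1.27 between ligation and sham (edgeR adjusted p 0.000767) and -2.55 between hearts with cells and sham (edgeR adjusted p 1.02e-06). Between hearts with cells and ligation it was -1.28 (edgeR adjusted p 0.0193), a call lost without ligation replicate 2, cell replicate 1 or cell replicate 3, the adjusted p reaching 0.0895. As with the cardiomyocyte and chondrocyte lists given above, the summed levels of 4 further marker lists were lower in both ligated groups than in sham. This did not hold for every gene in them. The 6 neutrophil genes summed to 37.9 to 45.2 CPM in sham, 14.5 to 21.0 in ligation and 5.76 to 6.80 with cells. Of the 4 tested, 2 passed as lower between ligation and sham (S100a8 and S100a9), where 18.0% of all genes did, while Csf3r had a log2 difference of 0.64 and did not pass, nor did Cxcr2; all 4 passed as lower with cells than in sham, where 20.0% did. The 5 endothelial genes summed to 1780 to 1899 CPM, 1248 to 1353 and 1334 to 1376, of which 4 passed as lower in each comparison with sham, while Vwf passed as higher after ligation (log2 0.23, edgeR adjusted p 0.00673) and did not pass with cells. The 4 smooth muscle genes summed to 539 to 573 CPM, 400.2 to 419.6 and 447 to 456, and 2 of the 3 tested passed as lower in each comparison with sham. Progenitor and mast cell genes, 6 in number, summed to 59.3 to 68.2 CPM, 35.9 to 40.5 and 42.6 to 46.2. Most of that sum came from Gata2, at 51.7 ± 3.67 CPM in sham, 28.5 ± 2.37 in ligation and 35.5 ± 0.673 with cells. Of the 3 tested, Gata2 and Cma1 passed as lower in each comparison with sham, while Kit passed in neither. No gene of these 4 lists was at 0 in all libraries. The part of any of these lists in the level of Sost was not tested. In hearts with cells against sham 8 genes of the bone list were higher, Tnfrsf11b (log2 2.95) and Spp1 (2.57) most, and 1 lower, with edgeR adjusted p-values of 6.50e-06 and 5.65e-10 for the named pair.

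**Figure D5:**
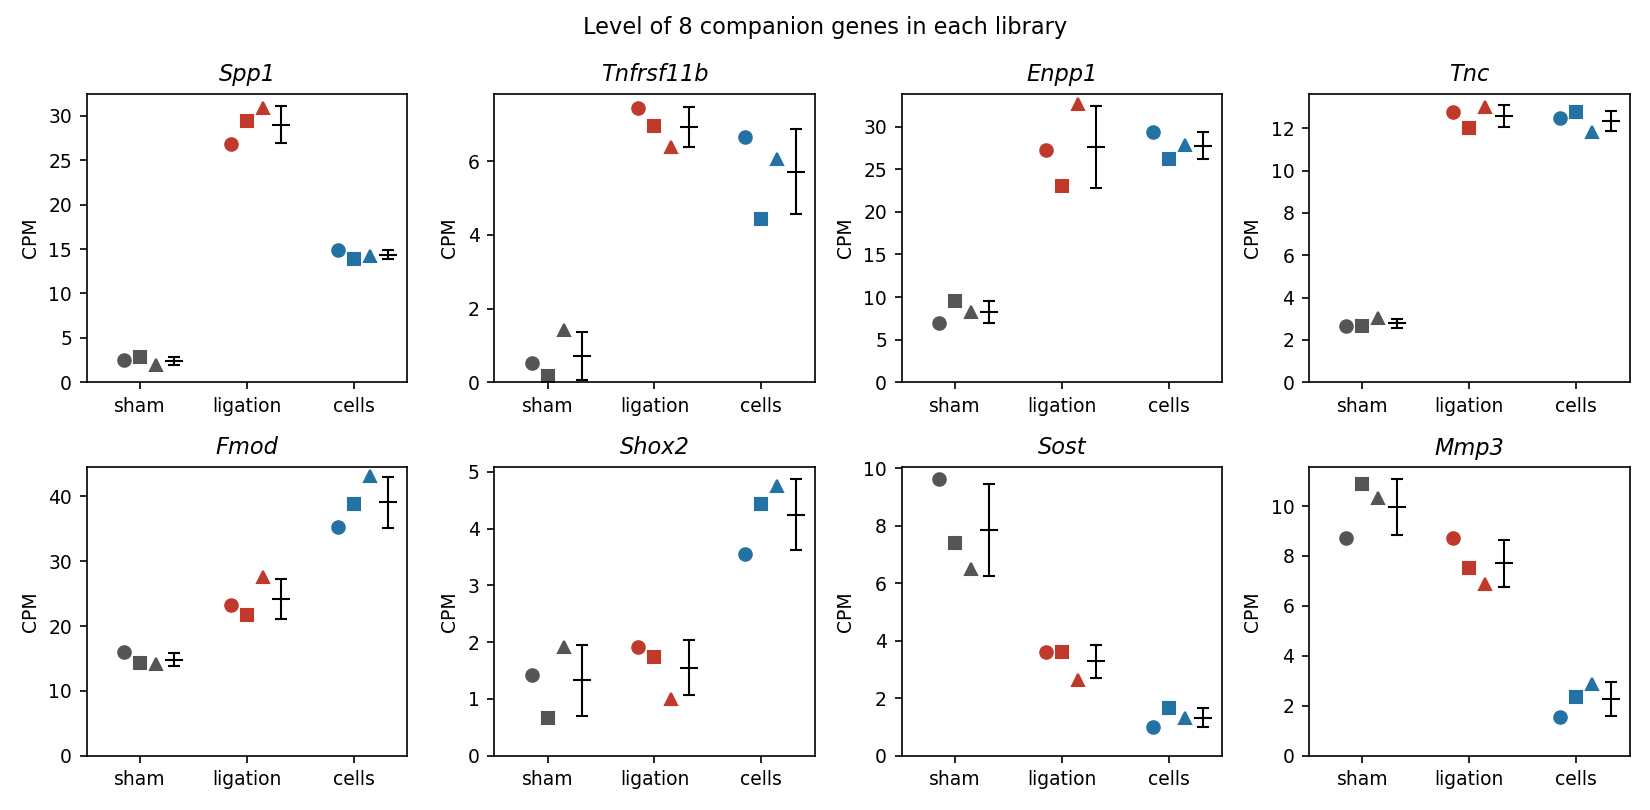
CPM (vertical axis) of 8 companion genes in the 3 libraries of each group, with the mean and SD as a black bar. Spp1 is highest in ligation at 26.8 to 30.9 CPM and intermediate with cells, Tnfrsf11b, Enpp1 and Tnc are high in both ligated groups, Fmod and Shox2 are highest with cells, and Sost and Mmp3 are lowest with cells.

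Genes that balance mineral deposition were tested in 9 of 11 cases, and 5 rose between ligation and sham with none lower. Enpp1, which makes the mineralisation inhibitor pyrophosphate, rose from 8.25 ± 1.31 to 27.6 ± 4.82 CPM (log2 1.74, edgeR adjusted p 1.29e-08). Mgp, matrix Gla protein, an inhibitor of vessel calcification, rose from 376 ± 10.3 to 699 ± 86.8 CPM (log2 0.89, edgeR adjusted p 8.76e-10). Nt5e, an ectonucleotidase, rose by 0.75 (edgeR adjusted p 3.17e-05). In hearts with cells the same 3 genes were higher than in sham by 1.75, 0.71 and 0.61, with edgeR adjusted p-values of 9.93e-09, 2.24e-08 and 0.000279. By edgeR's quasi-likelihood test 0 of the 9 passed between hearts with cells and ligation, 1 had an unadjusted p under 0.05, and DESeq2 called 0. Mgp there was lower by 0.18 on the log2 scale (edgeR adjusted p 0.0901) and passed without ligation replicate 3, without cell replicate 2, with library totals, with no filter on low counts and with libraries that share a header stem summed, the adjusted p running from 0.00426 to 0.429 over the alternatives.

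RUNX proteins bind DNA together with CBFB and are held in check by corepressors. Of 11 such partners and cofactors 10 could be tested, and 2 rose and 1 fell between ligation and sham (5 higher and 1 lower with library totals alone). Cbfb was at 34.8 ± 1.23 CPM in sham, 40.1 ± 5.30 in ligation and 39.5 ± 4.54 with cells, and did not pass in any of the 3 comparisons (edgeR adjusted p 0.160, 0.966 and 0.171). Without ligation replicate 3, and with library totals alone, it did pass between ligation and sham, the adjusted p running from 0.00451 to 0.429 over the alternatives. Runx3, the runt factor of lymphoid and other immune cells, rose from 0.831 ± 0.142 to 2.87 ± 0.911 CPM (log2 1.72, SE 0.421, edgeR adjusted p 0.00269) and was at 1.32 ± 0.145 with cells (adjusted p against ligation 0.0779). The corepressor Cbfa2t3 fell by 0.51 (edgeR adjusted p 7.30e-05) and the zinc-finger gene Zfp521, which can repress RUNX2, rose by 0.44 (edgeR adjusted p 0.00218). Hearts with cells differed from sham by -0.62 and 0.61 in these genes (edgeR adjusted p 5.73e-06 and 6.25e-05), the only ones of the list to pass there with TMM scaling. With library totals alone 5 passed as higher and 1 as lower there, Cbfb among them (adjusted p 0.00926). From ligation to hearts with cells 0 of the 10 passed by edgeR, 2 had an unadjusted p under 0.05, and DESeq2 called 0.

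Tendon and ligament genes were tested in 6 of 9 cases, and all 6 rose between ligation and sham. Tnc, tenascin-C, a matrix protein of tendon and wounds, rose from 2.77 ± 0.210 to 12.6 ± 0.521 CPM (log2 2.17, edgeR adjusted p 1.38e-08) and was at 12.4 ± 0.488 with cells. Thbs4, a thrombospondin related to COMP, rose by 1.57 and the fibril-associated collagen gene Col14a1 by 1.54 (edgeR adjusted p 2.13e-11 and 7.83e-12). Scx, the tendon transcription factor, rose by 0.88 (edgeR adjusted p 9.02e-05), while Tnmd, a late tendon gene, had at most 2 counts in any library. In hearts with cells all 6 were higher than in sham, with log2 differences of 2.14 for Tnc, 1.52 for Col14a1 and 2.79 for Egr1 (edgeR adjusted p 1.35e-08, 6.89e-12 and 9.83e-15). Egr1, an immediate-early factor that also acts in tendon, was the gene of this list that passed between hearts with cells and ligation, rising from 27.4 ± 2.96 to 127 ± 6.88 CPM (log2 2.21, edgeR adjusted p 9.35e-13).

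Among 11 proteases that cut aggrecan or COMP and their inhibitor TIMP3, 10 could be tested, and 3 rose and 1 fell between ligation and sham (5 higher and 1 lower with library totals alone). Of the same genes 2 were higher and 3 lower with cells than in sham (4 and 3 with library totals alone). Adamts7, which cleaves COMP, fell from 25.2 ± 3.46 to 16.6 ± 3.07 CPM (log2 -0.59, edgeR adjusted p 0.00216) and was lower than sham by 0.72 with cells (edgeR adjusted p 0.000337). Timp3 rose by 0.28 after ligation (edgeR adjusted p 0.000700). Adamts9, an aggrecanase, was higher by 0.26 after ligation (edgeR adjusted p 0.0365), a call lost without any of the 6 libraries of those groups in turn, with DESeq2 and with libraries that share a header stem summed, the adjusted p reaching 0.127. It fell by 0.69 between ligation and hearts with cells (edgeR adjusted p 4.46e-05), and hearts with cells were below sham by 0.43 (edgeR adjusted p 0.00133). Mmp3, stromelysin-1, had a mean of 9.97 ± 1.12 CPM in sham hearts and 7.71 ± 0.945 after ligation. With cells it fell to 2.27 ± 0.665 CPM (log2 -1.74 against ligation, SE 0.251, edgeR adjusted p 7.02e-05, and -2.13 against sham, edgeR adjusted p 5.43e-07).

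Of 11 receptors of the matrix proteins on the list, 10 could be tested, and 7 rose and 1 fell in each comparison with sham. Itgb5, an integrin chain of receptors for vitronectin and osteopontin, rose from 129 ± 3.42 to 257 ± 19.7 CPM after ligation (log2 1.0, edgeR adjusted p 2.51e-11) and was above sham by 0.89 with cells (edgeR adjusted p 1.21e-10). Cd44, a receptor of hyaluronan, rose by 0.97 after ligation (edgeR adjusted p 9.08e-07). Between hearts with cells and ligation it was lower by 0.38 on the log2 scale (edgeR adjusted p 0.0258), a call lost without ligation replicate 1 or 3 or cell replicate 1 or 2 and with DESeq2, the adjusted p reaching 0.115. Itga2, the collagen-binding chain to which chondroadherin binds, was at 1.90 ± 0.372 CPM in sham, 3.64 ± 0.546 in ligation and 3.92 ± 0.474 with cells. Its difference between ligation and sham (log2 0.96, edgeR adjusted p 0.0206) did not pass without sham replicate 2 or 3 or ligation replicate 3, with DESeq2 or with libraries that share a header stem summed, the adjusted p reaching 0.113, and that between hearts with cells and sham was 1.04 (edgeR adjusted p 0.0102). Itga11, another collagen-binding chain, was higher with cells than in sham by 0.93 (edgeR adjusted p 0.000810).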

How the data were processed

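Counts per gene were deposited by the authors as raw read counts, 1 file per library, on build mm10, per the submitters' processing notes. Per the labels' protocols, TRIzol was used for total RNA and the NEBNext Ultra kit for libraries. The aligner, counter, strand setting and annotation release are not given in the sources used here. The 5 closing rows named no gene and were left out; reads outside genes made up 4.14% to 4.91% and ambiguous reads 8.09% to 8.72%. Symbols, coordinates and exon lengths came from GENCODE M21 (GRCm38), matching 53360 of 53465 rows.

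Genes were kept with filterByExpr, scaled with TMM and fitted in 1 model over 9 libraries with a mean per group (edgeR 4.0.16, R 4.3.3, 6 residual degrees of freedom); p-values are two-sided and Benjamini-Hochberg adjusted over 13825 genes. SE is the log2 fold change divided by the square root of F. In simulated data for cells against ligation, 200 of 13825 genes were changed by 1 on the log2 scale. Of those 200, 166 were recovered (83%), and 18 unchanged genes were called beside these 166. Members and lists were chosen with earlier results of these data known. Companion genes were named by rule: per list and comparison the 3 largest passing changes with a mean of at least 1 CPM and no overlap, plus 17 set genes whatever their values. Genes named as most like a member were the 3 with the highest r. Alternatives covered scaling, filters, DESeq2 1.42.0, 2-group fits, a replicate block, removal of mitochondrially encoded genes, a prior count of 2 and leaving out each library.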

Additional observations from a re-analysis of the deposited data

How the results depend on the processing

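The counts of passing genes, and of passing companion genes, stayed within 1.5 times of those reported under every alternative run. With 1 library left out, 4482 to 5459 genes and 43 to 46 companion genes passed between ligation and sham, 951 to 1398 and 8 to 13 between cells and ligation, and 5055 to 5746 and 43 to 49 between cells and sham. The number of members that passed moved from 5 to 3 in ligation against sham with DESeq2's Wald test, where 32.5% of all genes passed, and from 2 to 1 in cells against ligation with the 2-group fit, where 9.78% did. Without 1 library it ran from 3 to 6, 0 to 2 and 3 to 4 in the 3 comparisons, with 31.9% to 38.7%, 6.75% to 9.91% and 35.8% to 40.9% of all genes passing. The cause was not tested. Over all alternatives 12 named companion genes changed sign in cells against ligation and 1 in ligation against sham, none of them a gene that passed. Among those named whatever their values, Alpl turned to -0.0179 and Scx to -0.00889 with library totals alone, and fits without 1 library ran from -0.0227 to 0.0629 for Alpl, -0.128 to 0.0513 for Cbfb and -0.131 to 0.115 for Scx. With the replicate number as a block, 46, 10 and 47 companion genes passed in the 3 comparisons, beside 37.1%, 8.90% and 39.9% of all genes. The largest shift of a member was then that of Chad in cells against ligation, to 2.56. Apart from the losses of Cilp and Fgfr3 given above, the block changed the call of no companion gene named by the rule. The numbers pair the libraries only by name: deviations of same-numbered libraries correlated at -0.123 to 0.144 across 9414 genes. The sum of the Bglap rows was too low for a fit. With libraries that share a header stem summed, chosen after seeing the data, 44, 11 and 47 companion genes and 4, 2 and 3 members passed, beside 32.5%, 7.83% and 38.5% of all genes. Depth limits Chad, Acan and Runx2, and at this depth Ibsp and Bglap could not be told from 0.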
